A study of Mus musculus with 12 samples.

Results

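The 10 genes described here mark osteoclasts and were followed through RNA sequencing of cultured mouse macrophages: Acp5, Car2, Ctsk, Oscar, Tnfrsf11a, Nfatc1, Dcstamp, Ocstamp, Atp6v0d2 and Calcr. They were chosen by name, as genes known from osteoclast biology, with earlier results of these data known, and all 10 had rows among the 24445 genes of the count tables, where each gene was represented by its transcript with the most reads. The cells were bone marrow-derived macrophages of C57BL/6 mice, cultured for 7 to 8 days with 15% L929-conditioned medium, which supplies M-CSF, the growth factor of the macrophage lineage. Mice labelled KO lacked DOT1L, a histone methyltransferase, in their myeloid cells, the others were wild type (WT), and the strain label names Lyz2, the lysozyme gene of myeloid cells. The cells were left untreated or given lipopolysaccharide (LPS) from Escherichia coli, which activates the receptor TLR4, at 10 ng/mL for 3 hours. There were thus 4 groups, WT and KO with and without LPS, of 3 libraries called biological replicates. The labels give neither the age nor the number of animals behind them, nor whether marrow was pooled, so p-values measure the spread between these libraries.

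Osteoclasts are the multinucleate cells that resorb bone, and they form by fusion of precursors of the monocyte and macrophage lineage. M-CSF keeps the precursors alive, and RANK ligand, acting through its receptor RANK, turns on the transcription factor NFATC1 together with signals from ITAM-bearing receptors such as OSCAR. The fused cell then acidifies the bone surface and degrades its matrix with enzymes that include cathepsin K and tartrate-resistant acid phosphatase. The medium used here contained M-CSF, and no addition of RANK ligand is described, so these are levels of osteoclast genes in macrophages and not in osteoclasts. The RNA is that of a bulk culture, in which fewer cells of a type and less RNA per cell cannot be told apart.

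The libraries held 8.64 to 13.54 M (1e6) reads, summed over 1 transcript per gene, and a floor of 3 reads corresponded to 0.222 to 0.347 counts per 1e6 counts (CPM). CPM values below are scaled by the trimmed mean of M-values (TMM) over all 12 libraries. Pooled CPM and floors use total counts instead. The libraries of WT replicate 1, untreated and LPS-treated, lay apart from the rest, with scores of 36.10 and 35.64 on a second principal component (4.44% of the variance) against -12.95 to 3.55 for the other 10. Replicate 2 of every group carried the Y-linked gene Ddx3y, at 94.2 to 106 CPM, while the other libraries had 0 reads of it. Which Dot1l exons were deleted is not given, so reads of the transcript are no check of the labels: the log2 fold change of KO against WT was -0.15 ± 0.13 untreated (adjusted p = 0.902, edgeR, but -0.28 and 0.0244 without untreated WT replicate 1) and 0.07 ± 0.09 with LPS (adjusted p = 0.754). Lyz2 was lower in KO with LPS (-1.17 ± 0.10, adjusted p = 0.00143) and differed by -1.16 ± 0.11 untreated (adjusted p = 0.0784, and 6.74e-08 without the same library). All 7 macrophage markers examined were detected, with summed levels of 4579 to 5989 CPM in untreated WT, 4960 to 5442 in untreated KO, 6268 to 7953 in LPS-treated WT and 6684 to 7598 in LPS-treated KO. The 10 stromal and osteoblast markers summed to at most 11.3 CPM, with Sp7 and Bglap at 0 reads in every group and Runx2 at 3.48 to 9.41 CPM, lymphocyte markers summed to at most 0.807 CPM and erythroid markers to at most 0.927 CPM in any library.

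Of the 7 genes with enough reads to test, 2 differed between genotypes: the acid phosphatase gene Acp5 (1.97-fold) and the carbonic anhydrase gene Car2 (2.89-fold) were higher in LPS-treated KO than in LPS-treated WT, a comparison in which 1.13% of 11264 genes were called. Without LPS 0 of 7 passed, as did 0% of 11622 genes. LPS itself changed 5 of 7 in each genotype, where 57.4% of 11984 genes were called in WT and 61.2% in KO. Acp5, Car2 and Tnfrsf11a, the gene of RANK, rose, and Nfatc1 and the proton pump gene Atp6v0d2 fell. Ctsk and Dcstamp passed in none of the 5 comparisons with TMM scaling and no block. Oscar, Ocstamp and Calcr had at most 14 reads in any library and failed the filter on low counts in every comparison. The plot of levels by library shows all 10 genes.

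**Figure D1:**
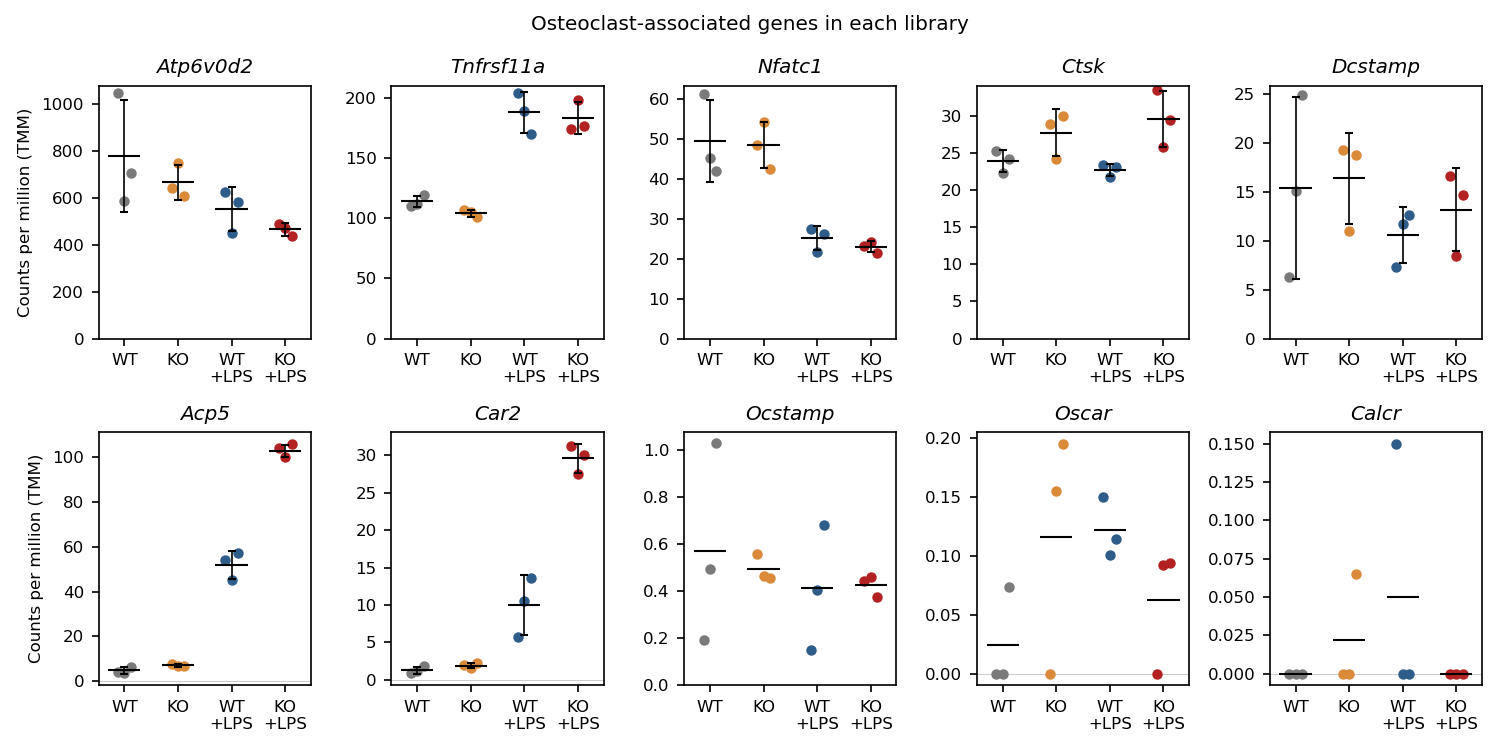
Level of each of the 10 genes in CPM (TMM-scaled, linear axes that differ between genes) in the 4 groups, with 1 point per library in the order of replicate numbers, a line at the mean of 3 libraries and, for the 7 genes tested, bars of 1 SD. The 3 LPS-treated KO libraries lie above all others for Acp5 (100 to 106 CPM) and Car2 (27.5 to 31.3 CPM), while Ocstamp, Oscar and Calcr stay near or under 1 CPM.

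Levels can be ranked between genes only per transcript length, which the authors' RPKM values (reads scaled by transcript length and library size) provide. In untreated WT, Atp6v0d2 stood highest at 326 ± 81.9 RPKM, followed by Tnfrsf11a at 23.9 ± 1.95, Ctsk at 16 ± 0.571, Nfatc1 at 10.6 ± 1.62, Dcstamp at 8.3 ± 5.2 and Acp5 at 3.7 ± 1.19 (SD, n = 3 each). Car2 followed at 0.781 ± 0.302, Ocstamp at 0.315 ± 0.24 and Oscar at 0.0147 ± 0.0254 RPKM, and Calcr was listed at 0. Neighbours in that order whose ranges of 1 SD met were Nfatc1 and Dcstamp, Dcstamp and Acp5, Car2 and Ocstamp, and the last pair, Oscar and Calcr. In LPS-treated KO the order was another: Acp5 was second at 54.4 ± 2.71 RPKM, after Atp6v0d2 at 138 ± 8.04, and Car2, at 12.3 ± 1.07, overlapped Ctsk at 13.9 ± 2.04. Nfatc1, at 3.47 ± 0.148, was then below Dcstamp at 4.91 ± 1.68, whose range of 1 SD it met.

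The receptors were examined first. Tnfrsf11a (chromosome 1, 105780673 to 105849444, plus strand, mm10) encodes RANK, the receptor through which RANK ligand drives osteoclast formation. Its 3 libraries held 110, 112 and 119 CPM in untreated WT and 107, 105 and 101 CPM in untreated KO. With LPS they held 204, 189 and 170 CPM in WT and 174, 198 and 177 CPM in KO. Every LPS-treated library was thus above every untreated one, as for 27.6% of all genes in WT and 36.8% in KO, and the genotypes overlapped with LPS but not without it, where each KO library was below each WT library, as for 8.55% of all genes. LPS raised Tnfrsf11a 1.65-fold in WT (log2 fold change 0.72 ± 0.08, adjusted p = 4.86e-06) and 1.76-fold in KO (0.82 ± 0.08, adjusted p = 1.24e-06). Here and below ± after a log2 fold change is its standard error, and adjusted p comes from edgeR's quasi-likelihood test over all genes tested. KO differed from WT by -0.11 ± 0.07 untreated (adjusted p = 0.867) and by -0.04 ± 0.09 with LPS (adjusted p = 0.87, and 0.02 without LPS-treated WT replicate 1).

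The gain of Tnfrsf11a depended on the scaling of the libraries. TMM gave untreated libraries factors of 1.15 to 1.26 and LPS-treated ones 0.772 to 0.847, and scaling by total counts alone moved the median LPS change of all genes from -0.05 to -0.59 in WT and from -0.02 to -0.62 in KO. On that scale 18.4% of the genes called in WT and 18.5% in KO were higher, against 48.1% and 49.5% with TMM. The LPS change of Tnfrsf11a was then 0.17 in WT (adjusted p = 0.0494) and 0.22 in KO (adjusted p = 0.0143), and relative to the median gene it was 0.76 and 0.84. With the authors' RPKM it missed the threshold in WT, at 0.17 (adjusted p = 0.0671, limma).

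Oscar (chromosome 7, 3609813 to 3616157, minus strand) encodes an immunoglobulin-like receptor that binds collagen and signals through the ITAM adaptor FCER1G. It had 0, 0 and 1 reads in untreated WT, 0, 2 and 3 in untreated KO, 1, 1 and 1 in LPS-treated WT and 0, 1 and 1 in LPS-treated KO. These 11 reads among 12 libraries lie near the floor, and no difference was detectable at this depth: the ratio of pooled CPM was 4.46 for untreated KO to WT, with an exact binomial 95% interval of 0.5 to 211, and 0.519 with LPS (0.0433 to 4.53). Calcr (chromosome 6, 3685678 to 3764713, minus strand), the calcitonin receptor of the mature osteoclast, had 1 read in untreated KO replicate 3, 1 in LPS-treated WT replicate 1 and 0 in the other 10 libraries. A count of 0 over the 3 libraries of a group allows a pooled level of up to 0.116 CPM in untreated WT. In LPS-treated KO it allows up to 0.0928 CPM (upper ends of exact Poisson 95% intervals, for counting error only). Both receptors of the later steps were therefore at or near 0 in cells with over 100 CPM of RANK transcript. Tarm1, an immunoglobulin-like receptor gene that is the next gene of the count table beside Oscar, rose by 6.30 ± 0.41 in WT and 6.35 ± 0.37 in KO with LPS on the log2 scale (adjusted p = 1.06e-08 and 3.42e-09).

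Nfatc1 (chromosome 18, 80606205 to 80713071, minus strand) encodes the transcription factor at the centre of the osteoclast program. Untreated WT libraries had 61.3, 45.3 and 42.1 CPM, and untreated KO libraries 48.5, 54.3 and 42.6 CPM. LPS-treated libraries had 27.4, 21.7 and 26.2 CPM in WT and 23.3, 24.2 and 21.5 CPM in KO. All 6 LPS-treated libraries were below all 6 untreated ones (30.2% of all genes were lower without overlap in WT and 37.3% in KO), while the genotypes overlapped in both conditions. LPS lowered Nfatc1 to 0.506 of its untreated level in WT (-0.98 ± 0.15, adjusted p = 5.82e-05) and to 0.475 in KO (-1.07 ± 0.15, adjusted p = 2.02e-05). With total counts alone the changes were -1.53 in WT and -1.67 in KO, and relative to the median gene on that scale -0.94 and -1.05. KO differed from WT by -0.01 ± 0.16 untreated (adjusted p = 0.997) and by -0.13 ± 0.12 with LPS (adjusted p = 0.677), and the sign of the first turned to 0.17 (adjusted p = 0.325) when replicate 1 of untreated WT, which had the highest level, was left out. The antisense gene AC123818.1 overlaps Nfatc1, and since the strand setting of the counting is not given, reads of the pair cannot be told apart.

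The fall of Nfatc1 was not equal along the gene, an observation made after its values had been seen. Of its 6 transcripts in the table, 2 end at position 80647435 (8 exons in the transcripts) and 4 run on to 80606205 (10 exons), and every library has reads for both kinds. Counted over all transcripts of each kind, the 2 kinds share 2527 bases. A further 2410 bases belong only to near-end transcripts and 2496 only to far-end transcripts. Reads are compared between a near-end transcript and a far-end transcript. The near-end and far-end transcripts had 462 and 634, 480 and 645, and 438 and 574 reads in the 3 untreated WT libraries, and 508 and 782, 484 and 703, and 431 and 656 in untreated KO. With LPS they had 231 and 183, 221 and 214, and 241 and 229 reads in WT, and 248 and 262, 302 and 259, and 238 and 227 in KO. The ratio of near-end to far-end reads was thus 0.75 ± 0.02 in untreated WT and 0.67 ± 0.02 in untreated KO, against 1.12 ± 0.13 and 1.05 ± 0.11 with LPS (SD, n = 3 each). The 2 ranges did not meet: the highest untreated ratio was 0.76 and the lowest LPS-treated ratio 0.95. LPS raised the ratio 1.53-fold (0.62 on the log2 scale; higher in 6 of 6 same-numbered pairs, exact two-sided permutation test by swaps within pairs, p = 0.0312, the smallest that its 64 arrangements can give). Taken by genotype it was 1.49-fold in WT and 1.58-fold in KO, where 3 pairs allow no exact permutation p below 0.25. The ratio of KO to WT was 0.92 over both conditions (exact permutation p = 0.09). When Nfatc1 was represented by its least covered transcript, a near-end one, its LPS change was -0.40 in WT (adjusted p = 0.0673) and -0.41 in KO (adjusted p = 0.0532), so the call rested on the far-end transcript. The shared bases count for both kinds, and reads of the bases of only 1 kind were not counted separately. The size of the shift between the 2 kinds is therefore not known.

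**Figure D2:**
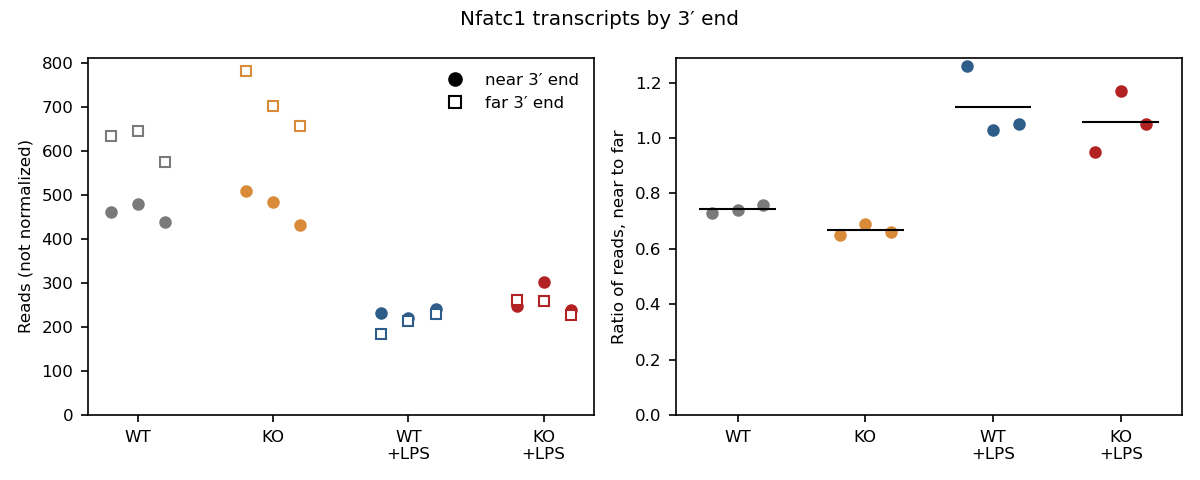
Reads of Nfatc1 transcripts with the near 3′ end (filled circles) and the far 3′ end (open squares) in each library on the left (reads, not normalized), and their ratio on the right with a line at the mean of 3 libraries. All 6 untreated libraries have ratios of 0.65 to 0.76 and all 6 LPS-treated libraries 0.95 to 1.26.

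Dcstamp and Ocstamp encode transmembrane proteins needed for the fusion of osteoclast precursors. Dcstamp (chromosome 15, 39745930 to 39760938, plus strand) had the largest standard error of the 7 genes tested in each of the 5 comparisons. Its levels were 6.29, 15.1 and 24.9 CPM in untreated WT, 19.3, 11 and 18.8 CPM in untreated KO, 7.34, 11.7 and 12.6 CPM in LPS-treated WT and 16.6, 8.4 and 14.7 CPM in LPS-treated KO. Replicate 1 was lowest in WT and replicate 2 was lowest in KO, in both conditions, and all 4 groups overlapped. KO differed from WT by 0.10 ± 0.42 untreated (adjusted p = 0.986) and by 0.30 ± 0.26 with LPS (adjusted p = 0.653). LPS changes were -0.55 ± 0.41 in WT (adjusted p = 0.272) and -0.31 ± 0.39 in KO (adjusted p = 0.504). Within a genotype the same-numbered libraries deviated together across conditions, and with the number as a block the same changes passed, at -0.53 in WT (adjusted p = 0.00428) and -0.31 in KO (adjusted p = 0.0405). Scaled by total counts they were -1.10 (adjusted p = 0.0313) and -0.91 (adjusted p = 0.0563), and relative to the median gene on that scale -0.51 and -0.29. The WT change without the block was -0.01 when untreated WT replicate 3, with the highest level, was left out. It was -0.88 when untreated WT replicate 1, with the lowest level, was left out.

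Ocstamp (chromosome 2, 165395450 to 165400394, minus strand) had 2, 7 and 14 reads in untreated WT, 9, 6 and 7 in untreated KO, 1, 4 and 6 in LPS-treated WT and 5, 5 and 4 in LPS-treated KO. The lowest WT library was again replicate 1 in both conditions. The ratio of pooled CPM of KO to WT was 0.854 untreated (exact binomial 95% interval 0.454 to 1.6) and 0.99 with LPS (0.418 to 2.41). That of LPS-treated to untreated cells was 0.493 in WT (0.217 to 1.05) and 0.571 in KO (0.27 to 1.17), and all 4 intervals include 1. Pooled CPM is scaled by total counts, and with TMM the LPS-treated and untreated levels lay closer. The TMM means were 0.572 CPM untreated and 0.412 CPM with LPS in WT, and 0.492 and 0.426 CPM in KO. Slc13a3, a dicarboxylate transporter gene next to Ocstamp, was higher in KO with LPS (1.27 ± 0.22, adjusted p = 0.0279), a call lost in 4 of 6 fits without 1 library (adjusted p up to 0.175).

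Atp6v0d2 (chromosome 4, 19876838 to 19922566, minus strand) encodes a d2 subunit of the vacuolar proton pump, which acidifies the resorption space and is also needed for fusion of precursors. It was the most abundant member, with 1047, 588 and 706 CPM in untreated WT and 642, 750 and 609 CPM in untreated KO. With LPS it had 626, 449 and 584 CPM in WT and 490, 473 and 436 CPM in KO. WT replicate 1 was the highest of its group in both conditions, the WT groups overlapped, and in KO every LPS-treated library was below every untreated one. LPS lowered Atp6v0d2 to 0.709 of its level in WT (-0.50 ± 0.18, adjusted p = 0.0292) and to 0.699 in KO (-0.52 ± 0.18, adjusted p = 0.0225). With total counts alone the changes were -1.04 in WT and -1.11 in KO, and relative to the median gene on that scale -0.45 and -0.49. The WT call was lost without replicate 1 of both conditions (-0.30, adjusted p = 0.0821), and without untreated WT replicate 1 alone (-0.21, adjusted p = 0.18), LPS-treated WT replicate 2 (-0.37, adjusted p = 0.125) or replicate 3 (-0.54, adjusted p = 0.051), and when only the 6 WT libraries were fitted (-0.49, adjusted p = 0.105). The KO call was lost without untreated KO replicate 2 (-0.44, adjusted p = 0.0821), LPS-treated KO replicate 2 (-0.53, adjusted p = 0.0529) or replicate 3 (-0.47, adjusted p = 0.0774), and in the libraries numbered 1 and 3 alone (-0.44, adjusted p = 0.0697). KO differed from WT by -0.21 ± 0.20 untreated (adjusted p = 0.915, and 0.07 without untreated WT replicate 1) and by -0.26 ± 0.12 with LPS (adjusted p = 0.393).

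The enzymes Acp5, Car2 and Ctsk came last, of which Acp5 and Car2 passed the test between genotypes with LPS. For these genes the bases just before the transcription start are shown, since Acp5 and Ctsk deviated together between libraries of a condition and only Acp5 passed the test. The sequences are the 250 bases before a start in RefSeq (GRCm38.p6), 5′ to 3′ on the strand of the gene, with capitals for matches on either strand to AP-1 (TGANTCA), the M-box of MITF-like factors (TCATGTG), PU.1 (GAGGAA), NFAT (TGGAAA) or the TATA box, written as TATAAA.
Acp5, chr9:22130599-22130848, minus strand: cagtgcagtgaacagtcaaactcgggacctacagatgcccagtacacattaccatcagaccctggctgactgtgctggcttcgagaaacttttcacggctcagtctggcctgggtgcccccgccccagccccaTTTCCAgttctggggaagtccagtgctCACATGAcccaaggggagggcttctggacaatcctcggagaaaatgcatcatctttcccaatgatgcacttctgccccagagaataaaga
Ctsk, chr3:95498960-95499209, plus strand: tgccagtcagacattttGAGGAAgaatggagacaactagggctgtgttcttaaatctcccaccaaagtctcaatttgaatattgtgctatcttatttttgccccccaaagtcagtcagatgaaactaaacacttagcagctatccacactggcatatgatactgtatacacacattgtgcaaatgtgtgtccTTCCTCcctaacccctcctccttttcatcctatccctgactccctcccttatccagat
The Acp5 window holds 1 M-box match, CACATGA, 90 to 84 bases before the start and 1 NFAT match, 117 to 112 bases before it. The Ctsk window holds 2 PU.1 matches, 233 to 228 and 58 to 53 bases before the start. Of 32851 mouse windows of this length, 3.25% held the M-box letters, 18.6% the NFAT letters and 23.3% the PU.1 letters, so the last are common. The windows at the other 2 Acp5 starts, at Tnfrsf11a and at both Calcr starts held 0 matches, and that of Oscar held 2 NFAT matches and 1 PU.1 match. The 3 Acp5 transcripts differ at their starts and had nearly equal reads (the lowest total was 99.6% of the highest), so the counts do not tell which start was used, and Car2, Nfatc1, Dcstamp, Ocstamp and Atp6v0d2 were not analysed here in this way.

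Acp5 (chromosome 9, 22126727 to 22135746, minus strand) encodes tartrate-resistant acid phosphatase, the classic stain of osteoclasts, which activated macrophages also make. Untreated WT libraries had 4.35, 3.79 and 6.56 CPM and untreated KO libraries 7.64, 6.95 and 6.62 CPM. With LPS the level was 54.1, 45.2 and 57.1 CPM in WT and 104, 100 and 106 CPM in KO. The 4 groups did not overlap, although untreated KO replicate 3 exceeded untreated WT replicate 3 by little. Without LPS the difference of KO from WT was 0.55 ± 0.22 and missed the threshold (adjusted p = 0.644). With LPS Acp5 was 1.97-fold higher in KO (0.98 ± 0.10, adjusted p = 0.00186), and this call held in each of the 6 fits without 1 library, at 0.88 to 1.06 (adjusted p 1.55e-05 to 0.0254). LPS raised Acp5 10.6-fold in WT (3.40 ± 0.16, adjusted p = 4.40e-10) and 14.6-fold in KO (3.87 ± 0.15, adjusted p = 6.68e-11). Acp5 lies within the noncoding gene 6530413G14Rik of the other strand, and without a stated strand setting reads of the pair cannot be told apart.

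Car2 (chromosome 3, 14886269 to 14900770, plus strand) encodes carbonic anhydrase II, which supplies the protons that the osteoclast pumps onto bone. It had 0.967, 1.12 and 1.84 CPM in untreated WT (10, 16 and 25 reads) and 1.93, 1.55 and 2.27 CPM in untreated KO (31, 20 and 35 reads). With LPS it had 5.69, 10.6 and 13.6 CPM in WT (38, 105 and 120 reads) and 31.3, 27.5 and 30.1 CPM in KO (354, 298 and 320 reads). The untreated groups overlapped, and with LPS the lowest KO library was above the highest WT library. KO differed from WT by 0.55 ± 0.31 untreated (adjusted p = 0.795). With LPS Car2 was 2.89-fold higher in KO (1.53 ± 0.22, adjusted p = 0.00874). Without LPS-treated WT replicate 1, the lowest of its group, the log2 difference was 1.28 (adjusted p = 4.14e-05). The call was lost without LPS-treated KO replicate 3 (1.52, adjusted p = 0.0704) and with RPKM and pseudocount 0.1 (1.66, adjusted p = 0.0553, limma). LPS raised Car2 7.56-fold in WT (2.92 ± 0.31, adjusted p = 1.78e-06) and 15.3-fold in KO (3.93 ± 0.27, adjusted p = 1.50e-08). Red blood cell precursors also make carbonic anhydrase II, and the erythroid markers Hba-a1, Hba-a2, Hbb-bs and Car1 were at 0 reads in every group, while the 8 erythroid markers together reached 0.0923 CPM at most in LPS-treated KO, where Car2 was highest.

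Ctsk (chromosome 3, 95499210 to 95509387, plus strand) encodes cathepsin K, the protease that cleaves bone collagen. Its levels were 25.3, 22.4 and 24.2 CPM in untreated WT, 28.9, 24.2 and 30.1 CPM in untreated KO, 23.4, 21.8 and 23.1 CPM in LPS-treated WT and 33.5, 25.9 and 29.5 CPM in LPS-treated KO. With LPS each KO library was above each WT library, while without LPS the lowest KO library lay among those of WT. KO differed from WT by 0.24 ± 0.12 untreated (adjusted p = 0.759) and by 0.38 ± 0.12 with LPS (adjusted p = 0.196). LPS changes of Ctsk were -0.08 ± 0.12 in WT (adjusted p = 0.613) and 0.09 ± 0.11 in KO (adjusted p = 0.502) with TMM. Scaled by total counts they were -0.62 (adjusted p = 6.21e-04) and -0.50 (adjusted p = 0.00228), and relative to the median gene on that scale -0.03 and 0.12. Ctss, the cathepsin S gene beside it, differed by -0.02 ± 0.15 and -0.05 ± 0.11 between genotypes, untreated and with LPS (adjusted p = 0.994 and 0.886).

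The comparisons across the 7 tested genes were then set beside all genes. Between untreated genotypes edgeR called 0 of them and 0% of 11622 genes, of which 841, Acp5 among them, had an unadjusted p under 0.05, and DESeq2 called 49 genes and 0 of the 7. Each untreated KO library was above each WT library for Acp5, as for 6.75% of all genes, and below for Tnfrsf11a, as for 8.55%. The median log2 difference was 0.10 over the 7 members and -0.00 over all genes. Without untreated WT replicate 1, 749 genes and 0 members were called.

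With LPS, 2 of 7 members, Acp5 and Car2, were called higher in KO and 0 lower, where 1% of 11264 genes were called higher and 0.124% lower (1.13% in either direction). The groups did not overlap for 3 members that were higher in KO, Acp5, Car2 and Ctsk, as for 11.1% of all genes, and for 0 that were lower, against 9.19% of all genes. The median of the 7 members was 0.30 against -0.01 over all genes. This count was 1 without LPS-treated KO replicate 3, in the libraries numbered 1 and 3 alone (Car2 1.61, adjusted p = 0.104) and with RPKM and pseudocount 0.1, and 2 under the other alternatives run.

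LPS raised 3 of 7 members (Acp5, Car2 and Tnfrsf11a) and lowered 2 (Nfatc1 and Atp6v0d2) in each genotype. Such calls were common: in WT 27.6% of 11984 genes were called higher and 29.8% lower, and in KO 30.3% and 30.9%. The median of the members was -0.08 in WT and 0.09 in KO, against -0.05 and -0.02 over all genes. The LPS comparisons and the genotype comparisons share libraries, and their values are given side by side only.

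Whether LPS acted differently on these genes in KO was tested by the interaction of genotype and LPS over all 12 libraries. It called 0 members and 0% of 11984 genes, with 288 genes at an unadjusted p under 0.05 and 0 called by DESeq2. The largest interaction among the members was that of Car2, at 1.01 ± 0.43 (unadjusted p = 0.0348, adjusted p = 1), followed by Acp5 at 0.47 ± 0.22 (unadjusted p = 0.0552, adjusted p = 1). They were 0.65 and 0.16 without untreated WT replicate 3, the untreated WT library with the highest level of both genes. The highest values without a library were 1.29 for Car2 (LPS-treated WT replicate 3 left out) and 0.61 for Acp5 (untreated WT replicate 2 left out). The other 5 members had interactions between -0.09 and 0.23. The genotype difference of Acp5 and Car2 that passed with LPS was therefore not shown to differ from that without LPS.

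**Figure D3:**
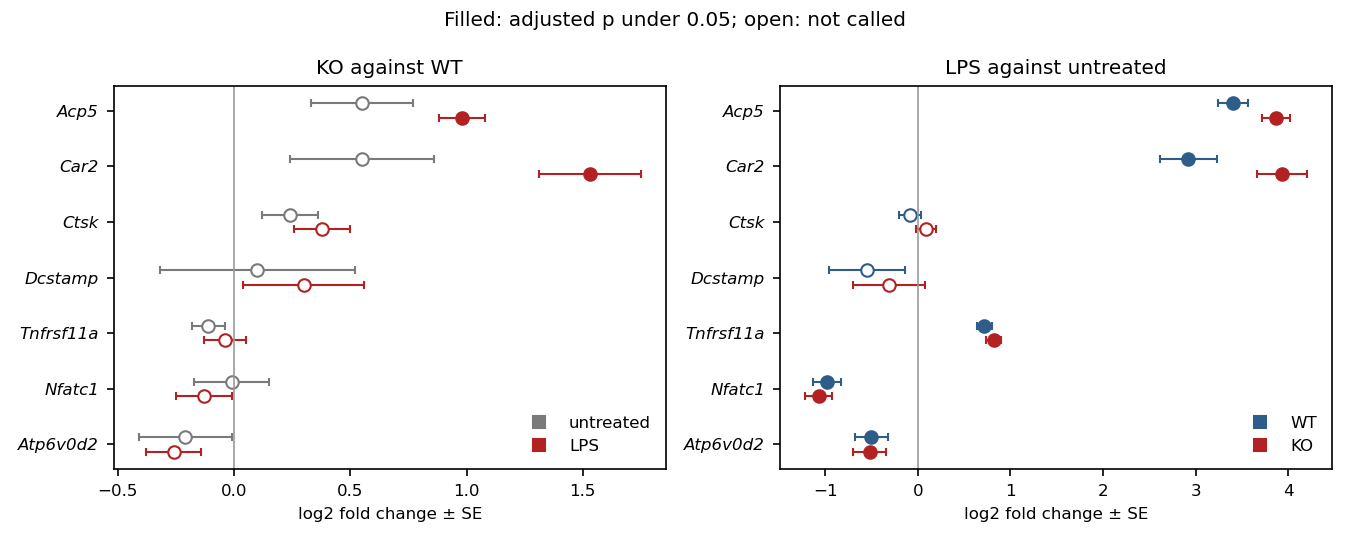
Log2 fold changes with standard errors of the 7 genes tested, for KO against WT on the left (grey untreated, red with LPS) and LPS against untreated on the right (blue WT, red KO), from edgeR with TMM scaling and 3 libraries per group. Filled points passed an adjusted p of 0.05: Acp5 and Car2 alone do so between genotypes, with LPS, and 5 of 7 genes do so with LPS against untreated in each genotype.

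Members also varied together between libraries of a condition, described here by Pearson's r of log2 CPM centred on the mean of each condition, over 12 libraries that share a genotype in sixes, so that the genotype difference is part of it. Acp5 ran with Car2 (0.86) and Ctsk (0.79), and Car2 with Ctsk (0.75). Nfatc1 ran with Atp6v0d2 (0.88) and opposite to Dcstamp (-0.83), and WT replicate 1 was the highest WT library for the first pair and the lowest for Dcstamp in both conditions. Among 9744 genes, the closest to Acp5 were Carmil1, Cpe and Pdzk1ip1 (0.93 each, Spearman's rho 0.90, 0.94 and 0.85), and Pdzk1ip1 was also among the 3 closest to Ctsk (0.88), with Crim1 (0.91) and Icam2 (0.88). For Car2 they were Exosc4 (0.95), Ppib (0.93) and S100a6 (0.91), and for Tnfrsf11a Nsmaf (0.96), Gpd2 (0.90) and Sh3rf1 (0.89). Nfatc1 was closest to Asah1 (0.97), Evi5 (0.95) and Spg20 (0.95), Dcstamp to Gpc1 (0.95), Cdan1 (0.95) and Cish (0.94), and Atp6v0d2 to C330007P06Rik, Fabp5 and Rpl35a (0.96 each).

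The wider osteoclast pathway was read from 6 lists with 80 genes. RANK ligand itself (Tnfsf11) had 0 reads in all 12 libraries, and its decoy receptor osteoprotegerin (Tnfrsf11b) had 0 reads untreated and 5 (WT) and 10 (KO) with LPS. Between untreated genotypes 0 of 72 tested genes were called by edgeR, 15 had an unadjusted p under 0.05, and DESeq2 called 1, the gelatinase gene Mmp9. Mmp9 had 63.8, 114 and 148 CPM in untreated WT and 60.6, 45.2 and 55.8 CPM in untreated KO, with no overlap, a difference of -0.99 ± 0.27 (adjusted p = 0.364, edgeR, and -1.25 and 0.0266 without untreated WT replicate 1). With LPS edgeR called 2 of 71 higher in KO and 0 lower, where 1% of all genes were called higher and 0.124% lower. Both were from the list of 13 repressors of osteoclast formation. These were Il10, the anti-inflammatory cytokine (0.90 ± 0.13), and Zeb1, a transcriptional repressor (0.78 ± 0.11, adjusted p = 0.00874 each). Il10 had 14.7, 14.9 and 11.8 CPM in LPS-treated WT and 25.2, 28.5 and 23.9 CPM in LPS-treated KO, so the groups did not overlap. Both calls were lost without LPS-treated WT replicate 3 (Il10 0.80, adjusted p = 0.0948, and Zeb1 0.71, adjusted p = 0.097) or KO replicate 3 (0.95, adjusted p = 0.0614, and 0.74, adjusted p = 0.0748). Of the 71 genes, 16 had an unadjusted p under 0.05 by edgeR, against 1553 of all 11264. DESeq2 called 4 of the 71 genes with LPS, Il10, Zeb1, Fosl2 and Mitf. By edgeR Fosl2 differed by 0.51 ± 0.11 (adjusted p = 0.0507) and Mitf, lower in KO, by -0.35 ± 0.09 (adjusted p = 0.103). Csf1r, the M-CSF receptor and the most abundant gene of its list, differed by 0.27 ± 0.09 untreated (adjusted p = 0.485) and 0.23 ± 0.10 with LPS (adjusted p = 0.325). In the interaction 0 of 73 genes were called by edgeR or DESeq2, and 7 had an unadjusted p under 0.05.

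With LPS against untreated, 37 of 73 genes were called higher and 14 lower in WT, and 41 and 14 in KO, where 27.6% and 29.8% of all genes were called in WT and 30.3% and 30.9% in KO. Of 12 genes of RANK signalling, 7 rose and 3 fell in WT and 7 rose and 2 fell in KO, with the NF-kB subunit genes Nfkb1 at 2.72 ± 0.08 in WT and Nfkb2 at 3.44 ± 0.11. Of 9 genes of the M-CSF receptor and the myeloid factors, 5 rose and 1 fell in WT, and 6 rose and 1 fell in KO. Mitf (1.67 ± 0.08 in WT) and its relative Tfec (2.55 ± 0.08 in WT) rose. Tfe3 was the gene that fell, by -0.68 ± 0.07 in WT and -0.66 ± 0.07 in KO. Of 13 genes of ITAM and calcium signalling, 5 rose and 1 fell in WT, with the kinase genes Syk at 1.26 ± 0.08 and Tec at -1.46 ± 0.11, and 6 rose and 2 fell in KO. Of 19 resorption genes, 7 rose and 5 fell in WT and 9 rose and 5 fell in KO, led by Src, the kinase of the ruffled border (4.75 ± 0.14 in WT), the integrin gene Itgav (3.11 ± 0.08 in WT) and the membrane protease gene Mmp14 (6.37 ± 0.18 in KO). Of 8 fusion genes, 4 rose and 3 fell in each genotype, with the cell surface genes Cd44 at 1.78 ± 0.08 in WT and Cd47 at 1.59 ± 0.09 in KO. Of 12 repressors, 9 rose and 1 fell in each genotype, with Irf1 at 5.56 ± 0.12 and the NF-kB inhibitor gene Nfkbia at 4.54 ± 0.10 in WT.

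The list medians with LPS in WT were 1.13 for RANK signalling, 1.22 for the M-CSF receptor and myeloid factors, 0.17 for ITAM and calcium, 0.15 for resorption, 0.19 for fusion and 3.42 for the repressors, against -0.05 over all genes. Between LPS-treated genotypes the 6 medians lay between -0.10 and 0.06, against -0.01 over all genes. The direction of the smaller LPS changes depended on the scaling, which moved the median gene by the amounts given for Tnfrsf11a. The plot of the 6 lists shows every gene tested.

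**Figure D4:**
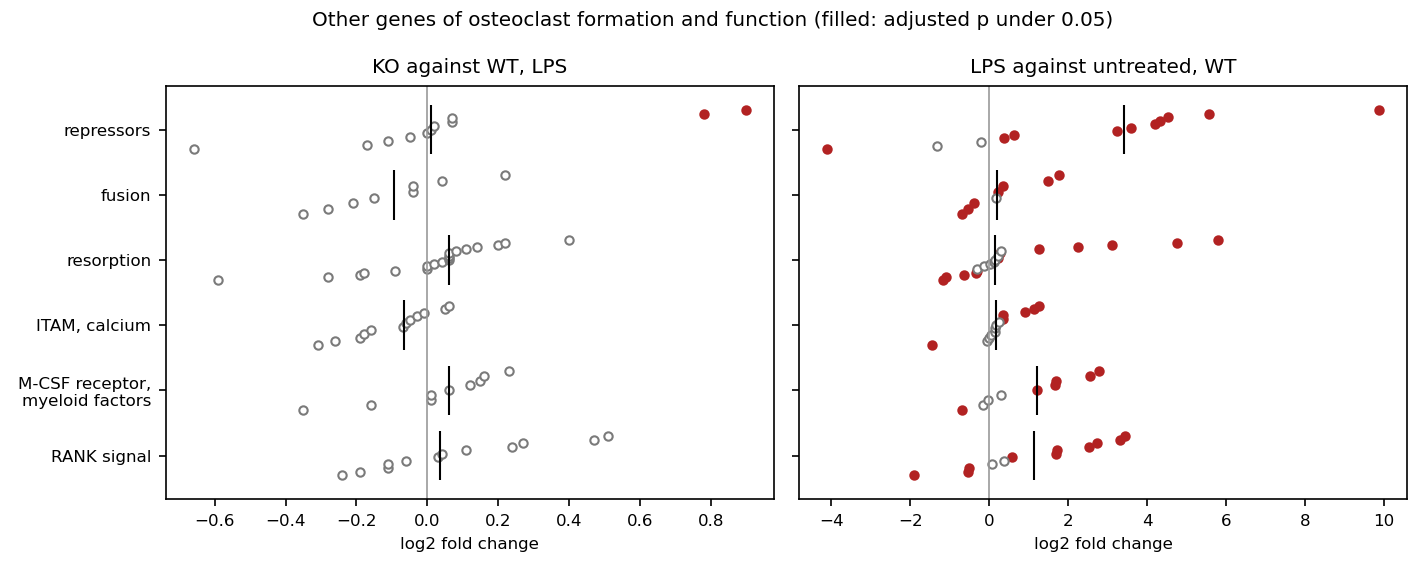
Log2 fold changes of the tested genes of 6 osteoclast lists (1 point per gene, spread vertically within its list, with a line at the list median), for KO against WT with LPS on the left and LPS against untreated in WT on the right, on axes of different range. Filled points passed an adjusted p of 0.05: 2 repressors (Il10 at 0.90 and Zeb1 at 0.78) on the left, and 37 higher and 14 lower genes of 73 on the right.

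Markers of other cells were examined beside the 2 members that differed between genotypes with LPS. Summed levels in LPS-treated WT and KO libraries were 108 to 137 and 97.7 to 157 CPM for 7 dendritic cell markers, 14.6 to 29.7 and 19.1 to 28.7 CPM for 7 neutrophil markers, and 7.98 to 10.1 and 8.21 to 11.3 CPM for 10 stromal and osteoblast markers. These sums overlapped between genotypes, but that of dendritic cells was mostly Itgax, and without it the other 6 markers summed to 3.45 to 3.75 CPM in WT and 4.86 to 5.81 CPM in KO. Single markers also differed without overlap, 6 of 16 higher in KO (Csf1r, Itgam, Fcgr1, Pdgfrb, Ccr7 and Xcr1) and 2 lower (Cd68 and Runx2), against 11.1% and 9.19% of all genes. Xcr1 had 0.749, 1.62 and 1.71 CPM in WT and 2.65, 2.58 and 2.72 CPM in KO, and Pdgfrb 3.6, 2.83 and 1.59 CPM against 4.33, 4.06 and 7.42 CPM. By the test 0 of the 16 markers were called between LPS-treated genotypes by edgeR or DESeq2. By edgeR 6 of the 16 had an unadjusted p under 0.05, against 1553 of all 11264 genes. With LPS against untreated, where Acp5 and Car2 rose, 4 of 7 macrophage markers, 2 dendritic cell markers and 1 neutrophil marker, S100a9, were called higher in each genotype (27.6% of all genes in WT and 30.3% in KO), and of 2 stromal markers called Pdgfrb was higher and Runx2 lower. Their part in the differences between genotypes and in the LPS changes was not tested.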

How the data were processed

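Poly(A) RNA was sequenced single-end at 50 bp, per the labels' protocols. The deposited tables give read counts, not normalized, and RPKM values (reads scaled by transcript length and library size) that the authors computed, for 35745 RefSeq transcripts, with untreated and LPS-treated libraries in separate tables. STAR 2.5.2b, SAMtools 1.3.1 and the build mm10 were used, per the submitters' processing notes. Neither the program that counted reads nor its strand setting or annotation version is given in the sources used here. A read within several isoforms is counted for each, so 1 transcript per gene, that with the highest total count, was kept: 24445 genes. Names came from RefSeq (GRCm38.p6) for 35435 transcripts and GENCODE for 193, and 117 without a name (0.259% to 0.738% of a library's reads) were left out.

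Genes passed edgeR's filterByExpr (minimum count 10), libraries were scaled by TMM, and the robust quasi-likelihood F test was applied with Benjamini-Hochberg adjustment over all genes and a threshold of 0.05 (R 4.3.3, edgeR 4.0.16, limma 3.58.1, DESeq2 1.42.0). Genotypes were compared on the 6 libraries of a condition, and LPS and the interaction on all 12 as 4 groups. Each standard error was computed as the absolute log2 fold change divided by the root of F. Other tools, scalings, filters and transcripts, RPKM (log2 with pseudocounts 0.1 and 1, limma), a replicate block and fits without single libraries were run as alternatives. The fit was tested on simulated data. Intervals and floors cover counting error only.

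Same-numbered untreated and LPS-treated libraries deviated together from their group means within WT (r 0.57, 0.56 and 0.30) and within KO (r 0.25, 0.45 and 0.20), which is the source of their pairing here. Same-numbered WT and KO libraries did not in each case (r 0.05, 0.18 and 0.26 untreated, and -0.03, 0.19 and 0.12 with LPS). No replicates were near-identical, with a chi-square per degree of freedom of 2.54 to 32.36 between any 2 of a group.

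The 10 genes, the 6 pathway lists and the marker lists were chosen with earlier results of these data known. From each pathway list, the text names up to 2 called genes with the smallest p per comparison. Of the genes with the most reads per length of their list, it gives values for Nfkb2, Csf1r and Irf1, and none for Fcer1g, Ctsb and Sirpa. Fosl2, Mmp9, Tfe3, Tnfsf11, Tnfrsf11b and the split of Nfatc1 by its ends lie outside this rule of naming and were chosen after their values were seen. Neighbouring genes were the nearest ones in the count table. Promoter windows were searched for 5 motifs on both strands.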

Additional observations from a re-analysis of the deposited data

How the results depend on the processing

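The LPS changes of Acp5 and Car2 and the Acp5 difference between LPS-treated genotypes kept their direction and call under each alternative run. Leaving out 1 library gave 0 to 749 called genes between untreated genotypes, 17 to 545 with LPS, 1 to 2 of the 10 genes with LPS and 0 in the interaction. Between untreated genotypes DESeq2 called 49 genes, no filter 9, the fit of all 12 libraries 27 and total counts without TMM 1, against 0. With LPS DESeq2 called 265, no filter 276 and the libraries numbered 1 and 3 alone 17, against 127, and 1 of the 10 genes passed in those libraries and with RPKM and pseudocount 0.1. In the interaction, RPKM with pseudocount 1 called 8 genes and the fit without WT replicate 1 of both conditions 24, against 0. With the replicate number as a block, 47 genes were called between LPS-treated genotypes, and Nfatc1 between untreated genotypes was 0.00. Between genotypes replicate 2 shares the Ddx3y reads, but same-numbered libraries did not deviate together in each case. Beside the Dcstamp changes given above, the block changed no other call of the 7 genes. Of the 7 genes, signs turned for differences that had not passed the test. The untreated genotype difference of Nfatc1 was 0.01 (voom), 0.05 (RPKM, both pseudocounts) and 0.03 (total counts), and without 1 library it ran from -0.12 to 0.17, that of Dcstamp from -0.25 to 0.62 and that of Atp6v0d2 from -0.38 to 0.07. The LPS-treated difference of Tnfrsf11a ran from -0.11 to 0.02. The LPS change of Ctsk in KO ran from -0.01 to 0.18, and was -0.49 and -0.47 (RPKM, pseudocounts 0.1 and 1) and -0.50 (total counts). Interactions ran from -0.32 to 0.12 for Atp6v0d2 (0.10 in the libraries numbered 1 and 3) and from -0.32 to 0.55 for Dcstamp. Nfatc1 with LPS was -0.40 in WT and -0.41 in KO by its least covered transcript. The cause of these changes was not tested. Depth limits Oscar, Calcr and Ocstamp most. The ratio of Nfatc1 ends was 0.62 on the log2 scale with and without pairing (exact permutation p = 0.0312 and 0.005). The alternatives chosen after seeing the data were total counts without TMM, leaving out both WT replicates 1 and the pairing of that ratio.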
